A study of Raphidocelis subcapitata with 270 samples.

Results

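The 150 genes described here are those whose transcript levels lay farthest apart between the DMSO control sets of a chemical exposure study in the green alga *Raphidocelis subcapitata*. They were chosen by their values in the 18 DMSO libraries alone, out of 13429 genes. Counts were divided by the library total, scaled to CPM and taken as log2(CPM + 2). Among the 6869 genes with a mean of at least 20 CPM in DMSO, 621 had a standard deviation of the 6 set means (B) more than 2 times the pooled standard deviation within sets (W), and the 150 with the highest B were kept.

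All cells were one alga in exponential growth, kept for 24 h with a chemical or with DMSO, the solvent used as the control. The 12 chemicals fell into 6 control sets of 3 DMSO libraries, lettered A, B and C, and each set was shared by a pair of chemicals. Set 1 served 1(2H)-Phthalazinone and Gabapentin, set 2 Metribuzin-DA and 2-tert-butyl-4-methoxyphenol, and set 3 Hydrochlorothiazide and 4-chlorophenyl methyl sulfone. Set 4 served Cetirizine Hydrochloride and Fipronil carboxamide, set 5 Fexofenadine and cis-nonachlordane, and set 6 Metolachlor OA and 3,4-Dichlorophenyl isocyanate. In each pair the chemical named here first is also the first in the label of the DMSO libraries. Every chemical had 7 labelled levels, D1 to D7, with 3 libraries each, lettered likewise. No label states a concentration for D1 to D7, so the levels are named groups without an order. They also do not say what a control set, a place in a pair or a letter stood for in the experiment, nor whether the libraries of a group came from separate cultures, so p-values reflect the scatter of the libraries as deposited, and some of it may be technical.

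*R. subcapitata* is a unicellular freshwater alga with crescent-shaped cells that is widely used in tests of chemical toxicity. In such algae the transcript levels of many genes follow light, nutrients, growth and the cell cycle, so cultures grown apart can differ without any added chemical. A solvent control carries the same solvent as the exposed wells and is the reference against which an exposure is read. The files give gene identifiers without names, so the functions of the 150 genes are not described and each is called by its identifier.

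Library totals ran from 596651 to 1909938 counts with a median of 1083755. The DMSO libraries of set 5 held 1674099, 1124694 and 1319095 counts and those of set 6 held 999397, 731426 and 1045143. The 10 most abundant genes took between 4.66% and 5.63% of the counts in the DMSO libraries of sets 5 and 6 and between 5.96% and 6.55% in those of sets 1 to 4. The part of this difference in the values below was not tested. The median deviation of the 6869 genes from the mean of the 6 sets lay between −0.03 and 0.06 on the log2 scale in every set, so no set was shifted as a whole by over 0.1.

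The values in DMSO, which chose the genes, are given as a description and not tested. B ran from 0.594 to 2.09 with a median of 0.762 on the log2 scale, against a median of 0.251 over the 6869 genes. W had a median of 0.277, against 0.263 over those genes, and B was between 2.00 and 8.56 times W, with a median of 2.80. The mean level of a member over the 18 libraries was between 20.1 and 1915 CPM. The last genes inside the list were Rsub_12262, with a B of 0.600, and Rsub_01749, with 0.594. Rsub_00834 and Rsub_04290 fell just outside with 0.593 and 0.591.

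One arrangement of the sets described most of the list. Set 1 lay above the mean of the sets and sets 5 and 6 below it in 66 genes, and the opposite held in another 66, which left 18 genes of other patterns. Sets 5 and 6 were on the same side of the mean in 146 of the 150. Across the 150 genes the deviations of sets 5 and 6 had a Pearson's r of 0.948, while set 1 had an r of −0.763 with set 5 and −0.757 with set 6. These correlations are over genes measured in the same libraries, and the deviations of 6 sets sum to 0 for each gene, which by itself pushes correlations below 0. The leading axis held 70.8% of the squared deviations.

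Set 1 was the highest set in 52 genes and the lowest in 45, set 5 was the highest in 25 and the lowest in 41, and set 6 was the highest in 49 and the lowest in 22. Sets 2, 3 and 4 were the highest in 18, 4 and 2 genes and the lowest in 13, 14 and 15. The mean absolute deviation was 1.00 in set 1 on the log2 scale, 0.819 in set 5 and 0.831 in set 6. It was 0.440 in set 2, 0.402 in set 3 and 0.392 in set 4, so these sets stood nearer the middle. With set 1 left out 90 of the 150 genes would still be chosen, and with any other single set left out between 113 and 131.

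**Figure D1:**
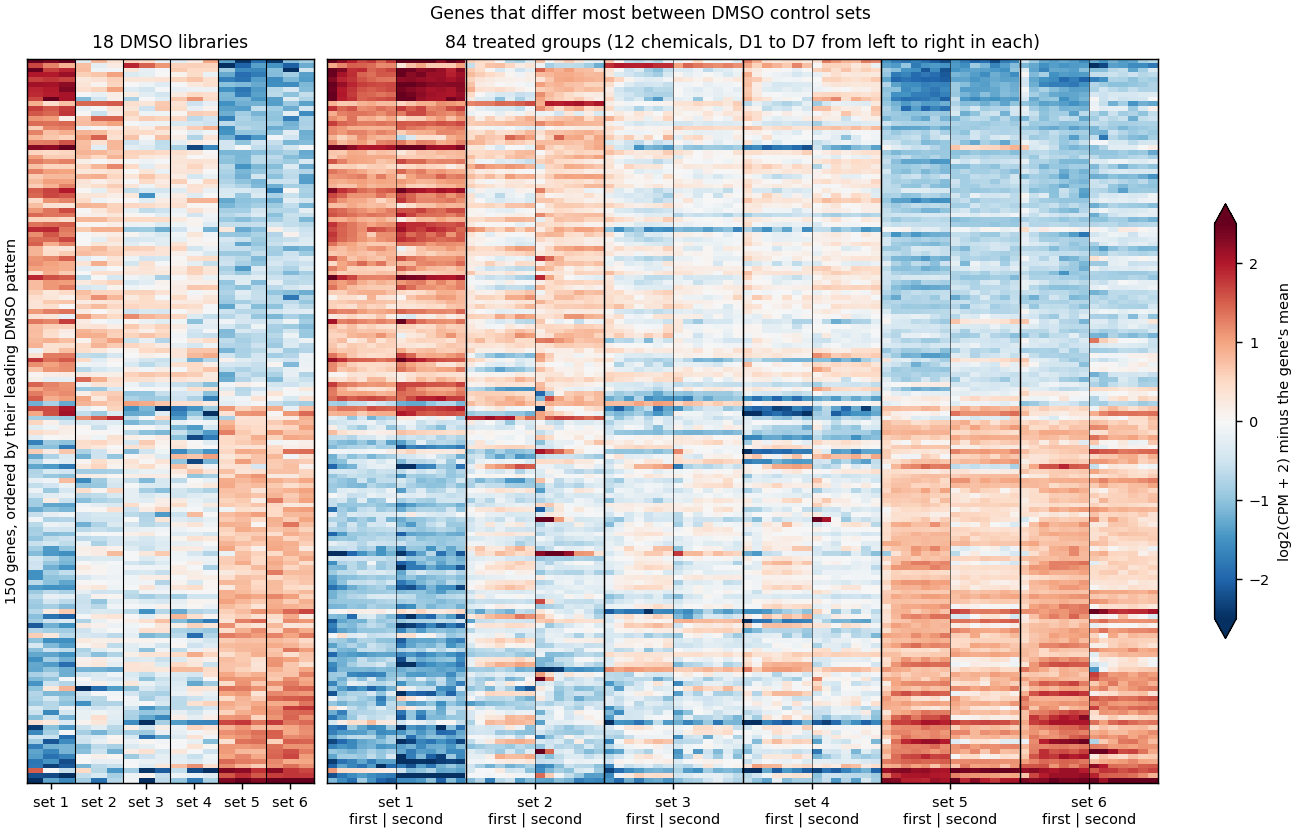
Level of each of the 150 genes (rows) in the 18 DMSO libraries (left, A, B and C in each set) and in the 84 treated groups (right, mean of 3 libraries), as log2(CPM + 2) minus the gene's mean over the libraries or groups of that panel, with red higher and blue lower and the colours held at 2.5 in either direction. Rows are in the same order in both panels, and the block of genes high in set 1 and low in sets 5 and 6, like the opposite block, can be followed from the left panel into the right one.

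The treated libraries measure the same sets in samples that the rule did not use. Counts were summed to one value per chemical, and the 6 sets, with 2 chemicals each, were compared in edgeR's quasi-likelihood test across all genes, with no DMSO library in the fit. The set differences were called in 144 of the 150 genes at an adjusted p under 0.05, in a background of 51.8% of the 11927 genes tested and 59.5% of those with at least 20 CPM. In all 150 genes the set that was highest in DMSO was also higher than the lowest one in the treated libraries, as it was in 91.4% of the 6869 genes. The log2 difference between those sets had a median of 1.84 in the treated libraries, with a range of 0.51 to 4.83, and a median of 2.02 in DMSO. Over the 6869 genes the medians were 0.36 and 0.66. The highest and lowest sets were picked in DMSO, and the 150 genes by their B there, which by itself raises the DMSO values. The smaller treated values are therefore not read as a difference between treated and DMSO cells.

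Most of the set pattern seen in DMSO was also present in the treated libraries of the same sets. The r between the DMSO and the treated deviation of a set, over the 150 genes, was 0.976 in set 1, 0.903 in set 2, 0.828 in set 3, 0.927 in set 4, 0.978 in set 5 and 0.982 in set 6. Over genes and sets together it was 0.958, against 0.798 for the 6869 genes, and the highest set was the same in 76.7% of the 150 genes and 49.7% of the 6869. The ratio of the standard deviation of the treated set means to B had a median of 0.942 and a range of 0.442 to 1.40, with 7 genes below 0.7 and 42 above 1. The choice of genes by a high B lowers this ratio. A value below 1 alone does not show a smaller spread in treated cells. At D1 alone the set differences were called in 127 genes, in a background of 14.7% of genes.

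**Figure D2:**
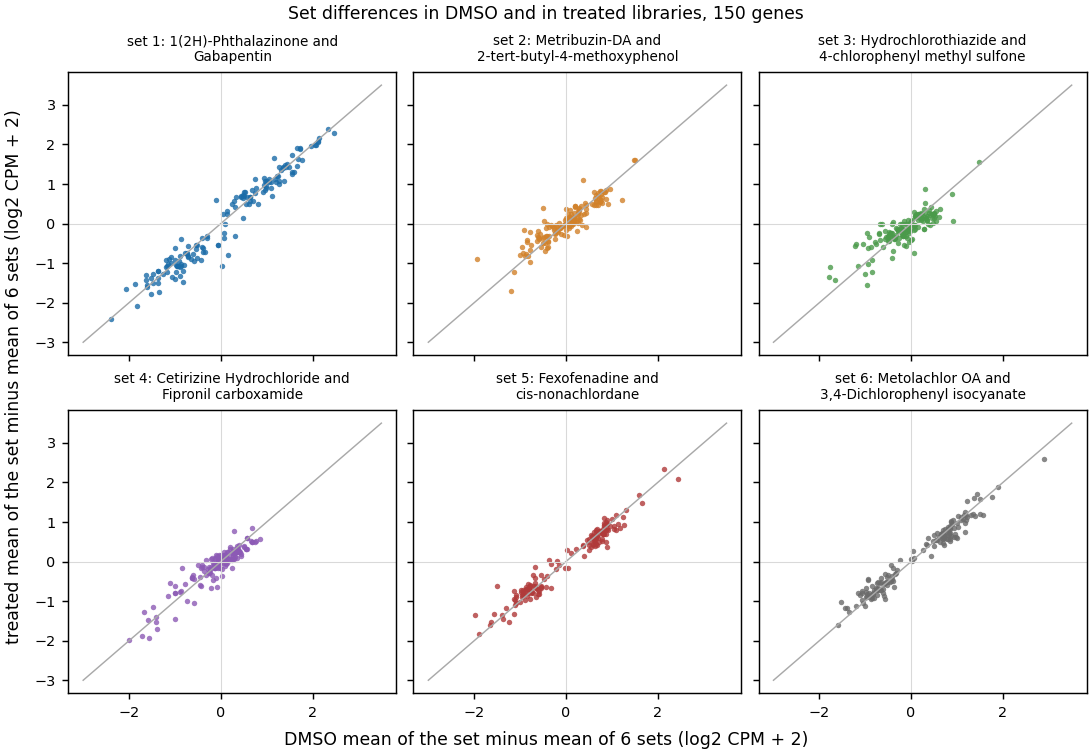
DMSO deviation of a set (x axis) against the deviation of its treated libraries (y axis, mean over both chemicals), each from the mean of the 6 sets on the log2(CPM + 2) scale, with one point per gene and the line of equality in grey. The points of sets 1, 5 and 6 follow the line closely (r of 0.976, 0.978 and 0.982) and reach farthest from 0, while those of set 3 scatter more (r of 0.828).

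In set 1 the genes farthest above the other sets were Rsub_11015 and Rsub_09628. Rsub_11015 stood at 91.6, 77.6 and 85.3 CPM in the DMSO libraries A, B and C of set 1, and at 0.889 to 28.6 CPM, with a median of 10.8, in the other DMSO libraries. No other DMSO library reached the level of set 1, and the treated libraries of set 1 ran from 40.3 to 212 CPM with a median of 98.4, against a median of 13.4 and a highest value of 65.5 in those of the other sets. Set 5 was the lowest, and the treated libraries of sets 1 and 5 differed by a log2 value of 4.83 ± 0.25 (SE, adjusted p = 3.33e-06, edgeR), against 4.35 in DMSO. Rsub_09628 was at 489, 472 and 568 CPM in set 1 and between 18.6 and 176 CPM in the other DMSO libraries. Its treated libraries were also wholly separate, at 354 to 1545 CPM in set 1 and 13.5 to 293 CPM elsewhere. The treated difference between set 1 and the lowest set, set 4, was 3.94 ± 0.39 (adjusted p = 8.03e-05).

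On the low side of set 1, Rsub_12849 was at 42.4, 40.9 and 28.2 CPM, against 112 to 732 CPM in the other DMSO libraries, with no overlap. In sets 5 and 6 it was at 593 to 732 and 670 to 700 CPM, and sets 2 to 4 lay between, at 112 to 215 CPM. The treated libraries of set 1 had a median of 34.2 CPM and those of the other sets 209 CPM, with overlapping ranges. The treated difference between set 6 and set 1 was 3.87 ± 0.46 on the log2 scale (adjusted p = 0.000533, edgeR). Rsub_02243 stood at 3.44, 1.71 and 2.35 CPM in set 1, the lowest levels of any DMSO library, and then stepped upward with the set number, with medians of 9.90, 16.8, 29.6, 32.0 and 39.2 CPM in sets 2 to 6. The treated medians had the same order, from 2.98 CPM in set 1 through 6.17, 11.6, 21.8 and 29.2 CPM to 44.9 CPM in set 6, with a difference between sets 6 and 1 of 3.56 ± 0.18 (adjusted p = 3.33e-06).

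Set 2 had its own high genes. Rsub_04371 was at 533, 544 and 565 CPM in set 2 and at most 364 CPM in any other DMSO library, with sets 5 and 6 lowest at 66.9 to 103 CPM. Its treated libraries of set 2 had a median of 652 CPM, and those of the other sets 158 CPM. Between sets 2 and 5 they differed by 2.87 ± 0.19 (adjusted p = 1.03e-05, edgeR). Rsub_09497 was at 240, 309 and 400 CPM in set 2 and 40.4 to 202 CPM elsewhere, again without overlap, and the treated difference between sets 2 and 4 was 2.44 ± 0.19 (adjusted p = 2.75e-05).

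The low genes of set 2 behaved less alike. Rsub_02621 was at 3.24, 5.77 and 9.24 CPM in the DMSO libraries of set 2, below the 12.6 to 78.5 CPM of all others, but the treated libraries of that set had a median of 19.6 CPM, above the 18 CPM of set 1. The difference between set 5 and set 2 was 3.19 in DMSO and 1.64 ± 0.33 in the treated libraries (adjusted p = 0.00336, edgeR). Rsub_11220 was at 84.2, 83.3 and 79.3 CPM in set 2, which overlapped the 76.7 to 94.7 CPM of set 1, while sets 3 to 6 were at 230 to 376 CPM. It was at 0 CPM in the lowest treated library of set 2, and the treated difference between sets 6 and 2 was 2.02 ± 0.32 (adjusted p = 0.000498).

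In set 3, Rsub_01551 was at 135, 98.8 and 74.9 CPM, overlapping the 64.1 to 113 CPM of set 1, with 4.18 to 12.1 CPM in set 5 and 6.84 to 13.4 CPM in set 6. It was also the gene farthest below the mean in sets 5 and 6, and no DMSO library of these sets reached the 28.9 CPM that was the lowest value of sets 1 to 4. In the treated libraries sets 3 and 5 differed by 3.24 ± 0.38 (adjusted p = 0.000172, edgeR). Rsub_03238 was at 76.4, 60.1 and 55.7 CPM in the DMSO libraries of set 3 but had a median of 27.7 CPM in the treated ones, where set 2 was higher with a median of 52.2 CPM. The difference between sets 3 and 6 was 1.89 in DMSO and 0.92 ± 0.13 in the treated libraries (adjusted p = 7.99e-05), so the DMSO level of set 3 was not found again in its treated libraries.

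Rsub_01781 was the farthest below the mean in sets 3 and 4 and among the farthest above it in sets 5 and 6. Its DMSO levels in libraries A, B and C were 26.2, 7.52 and 10.1 CPM in set 3 and 31.5, 8.82 and 3.81 CPM in set 4, against 254, 240 and 180 CPM in set 5 and 241, 174 and 161 CPM in set 6. Library A was the highest of the 3 in all 6 sets, with 144 CPM against 48.6 and 32.1 CPM in set 1 and 70.1 against 29.7 and 16.9 CPM in set 2, and its W of 0.877 is more than 3 times the median of the list. The treated difference between sets 5 and 4 was 4.13 ± 0.48 (adjusted p = 0.000156, edgeR), equal to the DMSO value of 4.13 at this precision. Rsub_11204, the other low gene of set 3, was at 10.5, 14 and 3.66 CPM there and at 107 to 142 CPM in set 1, a difference of 3.53 in DMSO and 2.72 ± 0.23 in the treated libraries (adjusted p = 2.35e-05).

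Set 4 was the highest set in only 2 genes but the lowest in 15. Rsub_05693 was at 44.4, 41.2 and 52.4 CPM in set 4, which overlapped the 23.2 to 45.0 CPM of set 6, and at 9.71 to 16.5 CPM in set 2, the lowest. Sets 4 and 2 differed in the treated libraries by 1.54 ± 0.21 (adjusted p = 0.000636, edgeR). Rsub_02243, lowest in set 1, was the other gene named above the mean here, at 29.6, 39.2 and 22.9 CPM. Rsub_11769 was low in set 4, at 22.7, 35.3 and 11.4 CPM, against 147 to 322 CPM in set 1, and the treated difference between these sets was 3.13 ± 0.60 (adjusted p = 0.0116).

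Rsub_02216 had the largest B of all, 2.09. It was at 64.5, 85.4 and 62.9 CPM in set 5 and 83.1, 98.4 and 112 CPM in set 6, while the 12 DMSO libraries of sets 1 to 4 held between 0 and 10.5 CPM. The treated libraries showed the same gap, with 36.9 to 111 CPM in set 5 and 43.4 to 173 CPM in set 6 against at most 19.0 CPM in sets 1 to 4. The treated difference between sets 6 and 1 was 4.58 ± 0.30 (adjusted p = 3.33e-06, edgeR), against 4.78 in DMSO, where a library at 0 counts keeps the log2 value from going lower. Among the low genes, Rsub_11015 was at 4.18, 0.889 and 2.27 CPM in set 5, and Rsub_00119 at 11.0, 1.37 and 17.2 CPM in set 6 against 86.2 to 176 CPM in set 1, with a treated difference of 3.33 ± 0.29 between sets 1 and 6 (adjusted p = 2.45e-05).

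**Figure D3:**
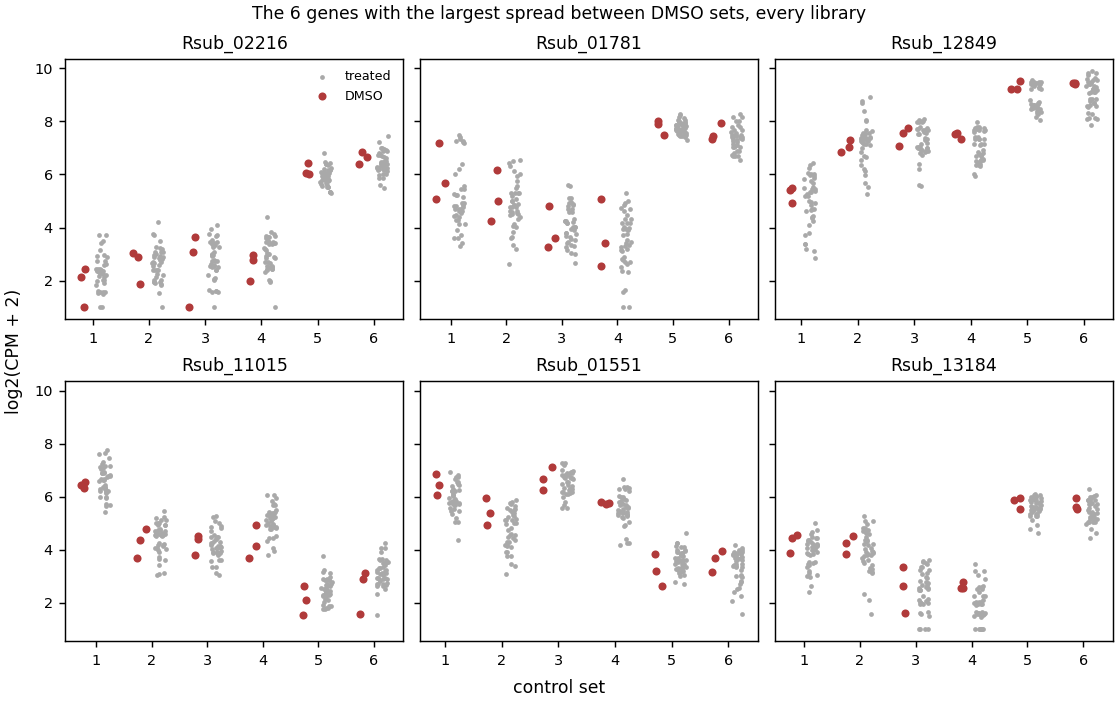
The 6 genes with the highest B, as log2(CPM + 2) in every DMSO library (red) and every treated library (grey) of the 6 control sets; points are spread sideways for legibility. Rsub_02216 separates sets 5 and 6 from the rest in both kinds of library, Rsub_12849 is lowest in set 1 and highest in sets 5 and 6, and Rsub_13184, the sixth gene, is lowest in sets 3 and 4.

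Some genes spread over the sets more or less in treated libraries than in DMSO. The highest ratios of the treated spread to B were those of Rsub_05069, 1.40, and Rsub_07060, 1.35. Rsub_05069 had DMSO medians from 28.4 CPM in set 4 and 26.5 CPM in set 3 to 106 CPM in set 1, and treated medians of 16.6, 19.5 and 156 CPM in those sets, so the ends lay farther apart in the treated libraries. Rsub_07060 had a treated median of 36.9 CPM for Metribuzin-DA and 122 CPM for 2-tert-butyl-4-methoxyphenol, against a DMSO median of 25.6 CPM in their set. The lowest ratios were those of Rsub_03645, 0.442, and Rsub_01231, 0.640. Rsub_03645 ranged from a DMSO median of 9.66 CPM in set 3 to 34.7 CPM in set 5, but its treated medians stood between 16.6 and 30.3 CPM in the 6 sets, with a difference of 0.51 ± 0.15 between sets 5 and 3 (adjusted p = 0.0113, edgeR) against 1.85 in DMSO. That call did not hold at D1, D2, D3, D6 or D7 alone, with adjusted p-values from 0.063 to 0.495.

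In 6 genes the set difference was not called in the treated libraries. Their adjusted p-values were 0.231 for Rsub_01112, 0.129 for Rsub_00223, 0.102 for Rsub_04998, 0.0943 for Rsub_01749, 0.0762 for Rsub_00522 and 0.0534 for Rsub_02437. The size of the difference was not small in them, as Rsub_01112 had 1.98 ± 0.67 between sets 6 and 1 in the treated libraries and 1.98 in DMSO. Each of the 6 also differed between the chemicals of 2 or more sets, in the test over sums per letter described below. With the place of a chemical in its pair as a term, an analysis added after the data were seen, all 150 genes were called, in a background of 70.8%.

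The extent to which a chemical and level carried the DMSO deviation of its set was described by the slope of the treated on the DMSO deviation over the 150 genes, where 1 means an equal deviation. The DMSO deviations chose the genes, which by itself draws slopes below 1. For Gabapentin the slope was between 1.07 and 1.16 at the 7 levels, and for 1(2H)-Phthalazinone between 0.824 and 0.984. It was between 0.894 and 1.07 for Fexofenadine and between 0.765 and 1.11 for Metolachlor OA. In the second chemicals of those sets it was higher at D1 than at D7, at 0.937 and 0.773 for cis-nonachlordane and 1.00 and 0.789 for 3,4-Dichlorophenyl isocyanate.

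The pattern was weakest in particular levels of sets 2, 3 and 4. For 2-tert-butyl-4-methoxyphenol the slope was 0.302 at D1, with an r of 0.175, and 0.622 at D2 and 0.864 at D7. Fipronil carboxamide had 0.505 at D1, 0.689 at D2 and 0.822 at D7. In contrast, 4-chlorophenyl methyl sulfone was low throughout, at 0.452 to 0.703, while Hydrochlorothiazide in the same set had 0.685 to 0.980. Cetirizine Hydrochloride stood at 1.18 at D1 and 0.925 at D7. These slopes have no replicate of the chemical and are not tested.

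**Figure D4:**
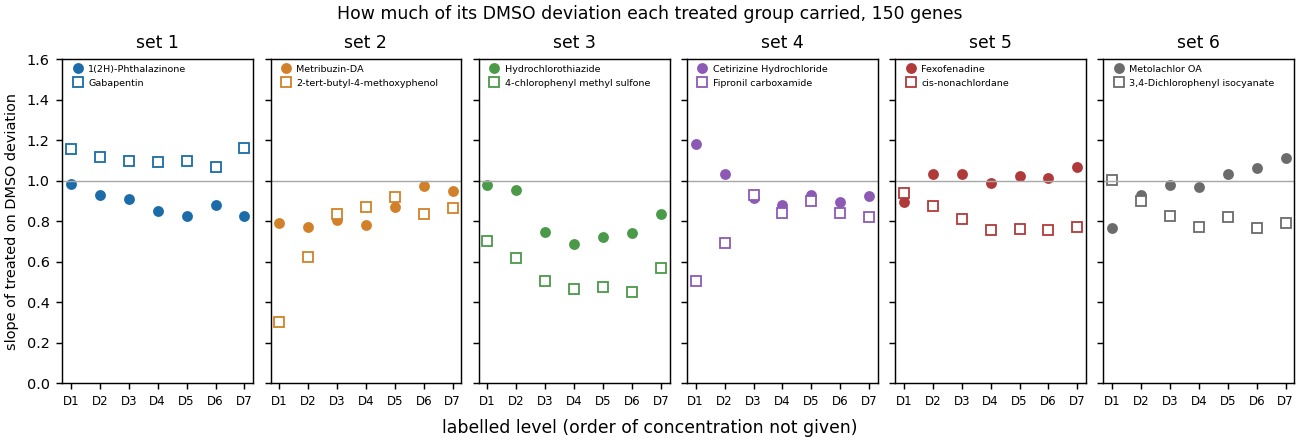
Slope, over the 150 genes, of the treated deviation (mean of 3 libraries minus the mean of the 12 chemicals at that level) on the DMSO deviation of the set, for the first (filled circles) and second (open squares) chemical of each pair at D1 to D7; the grey line marks 1. The slope of 2-tert-butyl-4-methoxyphenol is 0.302 at D1 and 0.864 at D7, whereas Gabapentin stays above 1 at every level.

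The chemicals of a set shared their DMSO libraries and were compared directly in the treated libraries, with the 7 levels averaged. Between 1(2H)-Phthalazinone and Gabapentin 82 of 148 genes tested differed, in a background of 15.5% of all genes and 19.4% of those with at least 20 CPM. In set 2 the count was 95 of 150, with backgrounds of 33.7% and 39.6%, and in set 6 it was 92 of 150, with 24.3% and 28.8%. In sets 3, 4 and 5, where 1 of the 150 genes was not tested, 84, 62 and 92 genes differed. Their backgrounds were 26.2%, 11.8% and 27.8% of all genes and 31.6%, 14.8% and 33.3% of those with at least 20 CPM. Of the 150 genes, 94 differed in 3 or more sets, 26 in all 6 and 7 in none (edgeR's quasi-likelihood test, adjusted within each set). That test takes the 21 libraries of a chemical as independent, although libraries of one letter can lie together at all 7 levels, so its p-values are too small where they do. With the levels summed to 3 values per chemical, one per letter, a test added after the data were seen called fewer genes. Of 150 genes it called 40, 63, 36, 32, 52 and 29 in sets 1 to 6, in backgrounds of 2.23%, 12.3%, 6.35%, 3.2%, 6.01% and 1.9% of all genes. By that test 38 genes differed in 3 or more sets, 9 in all 6 and 47 in none. For neither test is the share of all genes called in as many sets given. These counts over sets are therefore not shown to be particular to the list. The median absolute log2 difference of the genes was between 0.19 and 0.39 in a set, against 0.10 to 0.17 over the genes with at least 20 CPM.

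In set 1 the second chemical lay farther out on the DMSO pattern than the first: across 148 genes the difference of Gabapentin from 1(2H)-Phthalazinone had an r of 0.627 with the DMSO deviation of set 1. In the other sets this r, taken with the DMSO deviation of the set itself, was between −0.376 and −0.089. The difference between second and first chemicals over all sets, described below, had an r of 0.541 with the DMSO deviation of set 1. That difference includes set 1. The r of 0.627 is therefore not shown to be particular to the chemicals of set 1. Rsub_11015, high in set 1, had a median of 117 CPM with Gabapentin and 73.5 CPM with 1(2H)-Phthalazinone, a log2 difference of 0.72 ± 0.074 (adjusted p = 5.98e-11, edgeR, and 0.00175 over sums per letter). Rsub_12849, low in set 1, had 18.9 and 49.6 CPM, a difference of −1.39 ± 0.15 (adjusted p = 2.97e-10, and 0.00492 over sums per letter). Rsub_09628 had a difference of 0.25 ± 0.075 (adjusted p = 0.0158), which was not called over sums per letter (adjusted p = 0.205) and was −0.06 without replicate C. In set 2 Rsub_11220 was lower with 2-tert-butyl-4-methoxyphenol than with Metribuzin-DA, at medians of 44.3 and 90.6 CPM and a difference of −1.74 ± 0.10 (adjusted p = 3.85e-19), or −1.10 ± 0.13 over sums per letter (adjusted p = 0.000378).

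Other named genes were not called between the chemicals of at least 1 set they were named for. Rsub_02216 had medians of 59.7 CPM with Fexofenadine and 54.1 CPM with cis-nonachlordane, a difference of −0.02 ± 0.091 (adjusted p = 0.921, edgeR), although in set 6 it was higher with 3,4-Dichlorophenyl isocyanate by 0.45 ± 0.083 (adjusted p = 5.15e-05, and 0.0489 over sums per letter). Rsub_01781 had 0.37 ± 0.20 in set 3 and 0.50 ± 0.29 in set 4 (adjusted p of 0.188 and 0.290). It was called in sets 5 and 6, for which it was also named, at 0.27 ± 0.052 and −0.50 ± 0.11 (adjusted p of 5.23e-05 and 0.000643, edgeR). Rsub_03238, named for set 3, had −0.25 ± 0.14 there (adjusted p = 0.179). A p that misses the threshold does not show that the levels were alike.

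The difference between the second and the first chemical had much in common between sets that share no library. For the 150 genes its r between any pair of sets was between 0.611 and 0.834 with a median of 0.670, and for the 6869 genes between 0.368 and 0.712 with a median of 0.575. It had the same sign in every set tested for 71 genes, or 47.3%, against 30.1% of the 6869. A test over all sets, added after the data were seen, had the control set as a block and compared the 6 second with the 6 first chemicals. It called 83 of the 150 genes, in a background of 20.5% of genes (27.8% of those with at least 20 CPM). Of these, 45 were higher in the second chemicals (10.7%) and 38 lower (9.82%).

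The 2 genes with the largest difference in each direction were taken, after their values were seen, to show its size. Rsub_04998 was higher in the second chemicals by 1.06 ± 0.16 (adjusted p = 0.000451, edgeR), with medians of 379 CPM for 2-tert-butyl-4-methoxyphenol and 98.6 CPM for Metribuzin-DA, and 395 CPM for cis-nonachlordane and 229 CPM for Fexofenadine. Rsub_11769 was higher by 1.04 ± 0.059 (adjusted p = 2.41e-07), and its second medians were 352, 128, 102, 42.4, 239 and 275 CPM in sets 1 to 6, against first medians of 208, 55.0, 53.3, 19.8, 116 and 143 CPM. The second chemical was above the first in 6 of 6 sets in both genes. In Rsub_04998 the levels did not contribute alike. With 2-tert-butyl-4-methoxyphenol its median was 904 CPM at D1 and 167 CPM at D7. D1 differed from D7 by −0.07 ± 0.17 in the first chemicals and 0.94 ± 0.16 in the second. At D7 alone its second median was below the first in 0 of 6 sets.

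Of the 38 genes called lower in the second chemicals, 33 were lower in every set tested, and of the 45 called higher 37 were higher in every set tested. The call itself rests on these set differences, so a shared sign is partly built into these counts. Rsub_01112 differed by −1.22 ± 0.074 on the log2 scale (adjusted p = 3.74e-07, edgeR), with second medians of 7.99, 25.0, 18.7, 22.6, 21.1 and 25.3 CPM in sets 1 to 6 and first medians of 23.9, 75.3, 57.0, 54.4, 82.1 and 93.3 CPM. The DMSO medians of this gene, 23.9, 80.9, 82.7, 83.3, 87.2 and 106 CPM, were near or above those of the first chemicals. Rsub_00223 differed by −1.12 ± 0.055 (adjusted p = 7.49e-08), with DMSO medians of 101, 300, 324, 326, 433 and 429 CPM, first medians of 110, 322, 266, 327, 480 and 486 CPM and second medians of 43.3, 97.2, 112, 167, 182 and 179 CPM. In both genes the second median was below the DMSO and the first median in every set.

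The same was seen in the distance of the treated libraries from DMSO over the whole list, which is a description because DMSO chose the genes. At D7 the median absolute difference from the DMSO libraries of the set was between 0.146 and 0.171 on the log2 scale for the first chemicals and between 0.260 and 0.379 for the second. Over the 6869 genes it was 0.120 to 0.150 and 0.184 to 0.218. Over the 150 genes the chemical most like Fexofenadine in its mean levels was Metolachlor OA, with an r of 0.970, and cis-nonachlordane was most like 3,4-Dichlorophenyl isocyanate, with an r of 0.899. The pairs within sets 5 and 6 had an r of 0.858 and 0.872. For 7 of the 12 chemicals the most like chemical was the other one of its own set. What the place of a chemical stood for in the experiment is not given, so place and chemical cannot be told apart within a set.

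**Figure D5:**
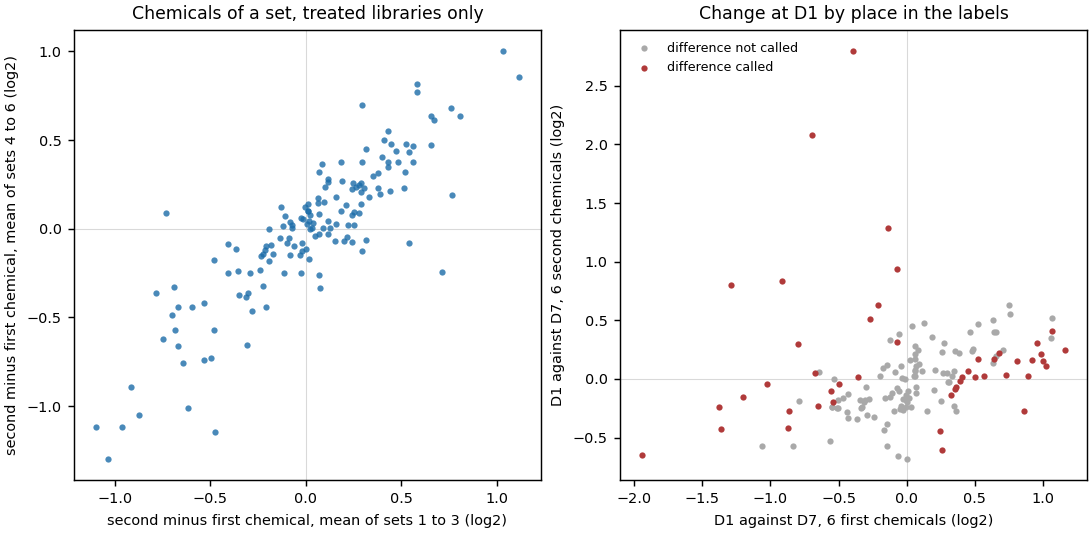
Left, log2 difference between the second and the first chemical for each of the 150 genes, as the mean of sets 1 to 3 (x axis) against the mean of sets 4 to 6 (y axis), from treated libraries only. Right, log2 difference of D1 from D7 in the 6 first (x axis) and the 6 second chemicals (y axis), with the 47 genes in red whose difference between first and second was called; the point highest on the y axis, at 2.80, is Rsub_01749.

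Differences between the labelled levels used no DMSO library and, with the chemical as a block, no difference between sets. Over the 84 sums of one chemical and level, 82 of the 150 genes differed among D1 to D7, in a background of 19.0% of the 10165 genes tested and 24.8% of those with at least 20 CPM. At D1 against D7, 49 genes were higher (8.79%) and 40 lower (8.52%), and the median absolute log2 difference was 0.26, against 0.09 over the 6869 genes. D2 differed from D7 in 9 genes (0.925%). At D3 to D6 the median absolute difference from D7 was 0.05 to 0.06, so most of the difference between levels lay at D1. Without D1 44 genes differed among the levels left, in a background of 6.76%.

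Genes above and below the mean in DMSO set 1 mostly moved in opposite directions at D1, mainly in the first chemicals. Of the 81 genes above the mean in DMSO set 1, 41 were higher at D1 than at D7 and 8 lower. Of the 69 below it, 8 were higher and 32 lower. The medians of these groups were 0.17 and −0.19. Over all genes tested, without this split, 8.79% were higher at D1 and 8.52% lower. The split is not given for genes outside the list, so the opposite directions are not shown to be particular to these genes. In the first chemicals the median of the 81 genes was between 0.17, in Metribuzin-DA, and 0.41, in Metolachlor OA, and that of the 69 between −0.20, in Cetirizine Hydrochloride, and −0.42, in Hydrochlorothiazide. In the second chemicals the medians of the 81 genes were between −0.09 and 0.05, and those of the 69 between −0.29, in Gabapentin, and 0.05.

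The levels were then tested separately for first and second chemicals, again after the data were seen. D1 differed from D7 in 81 genes in the first chemicals, in a background of 11.0% of all genes and 14.6% of those with at least 20 CPM. In the second chemicals it differed in 43 genes (7.65% and 9.86%). The difference between first and second was itself called in 47 genes (2.09% and 2.77%). Across the 150 genes the D1 difference of the first chemicals had an r of 0.751 with the DMSO deviation of set 1, and that of the second chemicals an r of 0.060. No such r is given for the 6869 genes or, with first and second chemicals apart, for the deviations of the other sets. The median absolute difference was 0.34 in the first and 0.21 in the second, and 0.11 and 0.10 over the 6869 genes.

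Among the called genes, Rsub_01749 and Rsub_02879 rose most at D1. Rsub_01749, last in the list by B, rose by 1.55 ± 0.38 over all chemicals (adjusted p = 0.00156, edgeR), but its libraries show that this came from certain chemicals. At D1 it was at 1156, 1219 and 1312 CPM with 2-tert-butyl-4-methoxyphenol and at 795, 878 and 874 CPM with Fipronil carboxamide, against 29.7, 37.1 and 22.2 CPM and 24.3, 30.7 and 32.6 CPM at D7. With 3,4-Dichlorophenyl isocyanate it was at 98.6, 58.6 and 113 CPM at D1 and 54.6, 40.1 and 55.6 CPM at D7. In the other 9 chemicals its D1 median was between 17.6 and 53.7 CPM and its D7 median between 19.9 and 65.9 CPM. Rsub_02879 rose by 0.78 ± 0.11 (adjusted p = 3.27e-08). Its D1 libraries of Hydrochlorothiazide were at 37.3, 36.2 and 21.7 CPM and the D7 libraries at 15.0, 14 and 11.9 CPM, without overlap, and its D1 median was above the D7 median in 10 of the 12 chemicals.

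The largest falls were those of Rsub_09261 and Rsub_01112. Rsub_09261 fell by 1.37 ± 0.14 on the log2 scale (adjusted p = 7.49e-12, edgeR). With Metolachlor OA it was at 30.0, 31.1 and 27.4 CPM at D1 and 117, 238 and 240 CPM at D7, and with Fexofenadine at 24.2, 37.7 and 48.2 CPM at D1 and between 82.0 and 199 CPM at D7. The difference was −1.94 ± 0.16 in the first chemicals and −0.65 ± 0.18 in the second. Rsub_01112 fell by 0.98 ± 0.11 (adjusted p = 5.20e-11). Its difference was −1.36 ± 0.13 in the first chemicals and −0.43 ± 0.15 in the second, where the adjusted p was 0.0597. With Metribuzin-DA it was at 37.7, 28.6 and 23.1 CPM at D1 and 88.8, 120 and 95.3 CPM at D7.

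In both genes the letters of the second chemicals also lay apart. The median of Rsub_01112 over the 7 levels was 60.1 CPM in the libraries lettered A of 2-tert-butyl-4-methoxyphenol, 24.7 CPM in B and 19.6 CPM in C, and 78.1, 24.5 and 23.0 CPM for 3,4-Dichlorophenyl isocyanate. The A libraries were the highest in 6 of the 6 second chemicals and in 1 of the 6 first. For Rsub_09261 the medians were 143, 77.4 and 27.5 CPM for 3,4-Dichlorophenyl isocyanate and 80.6, 193 and 223 CPM for Metolachlor OA in the same set. A was the highest in 6 of 6 second and 0 of 6 first chemicals. Without replicate A the set difference of Rsub_09261 was no longer called, with an adjusted p of 0.132.

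When each chemical was compared with its own DMSO libraries, the libraries that chose the genes enter every contrast, and pairs of chemicals share them, so the counts are given without being read further. Over the 7 levels 31 of the genes were called for 1(2H)-Phthalazinone (background 1.25%) and 70 for Gabapentin (11.6%), 13 for Metribuzin-DA (0.869%) and 64 for 2-tert-butyl-4-methoxyphenol (10.1%), and 23 for Hydrochlorothiazide (0.906%) and 38 for 4-chlorophenyl methyl sulfone (7.18%). There were 18 for Cetirizine Hydrochloride (1.02%) and 20 for Fipronil carboxamide (2.35%), 20 for Fexofenadine (0.606%) and 17 for cis-nonachlordane (0.896%), and 49 for Metolachlor OA (2.48%) and 28 for 3,4-Dichlorophenyl isocyanate (2.51%). In all 124 of the 150 genes were called for at least 1 chemical, and the most for one gene was 11 chemicals, in Rsub_09770. The share of all genes called for at least 1 chemical is not given, so the count of 124 has no background. The 391 calls over genes and chemicals became 87 without replicate B and 249 without replicate C. With the letter as a block, in the sets where letters paired the DMSO and first-chemical libraries, 65 genes were called for Hydrochlorothiazide (background 5.37%), 53 for Fexofenadine (4.59%) and 68 for Metolachlor OA (6.61%).

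Some of the genes had neighbouring identifiers. Of the 150, 8 pairs had identifier numbers at most 2 apart, and their DMSO deviations over the 6 sets had an r between −0.732 and 0.987. Rsub_11265 and Rsub_11267 were the most alike and Rsub_12262 and Rsub_12264 the least. How many such pairs another list of 150 genes would hold was not tested. Whether neighbouring identifiers lie side by side in the genome or share reads was not tested either.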

How the data were processed

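RNA was sequenced from the 3′ ends of transcripts with unique molecular identifiers, per the labels' protocols. The authors deposited raw counts per gene in 12 tables of 24 columns, one table per chemical, whose column names gave the sample. The submitters' processing notes name featureCounts 2.0.6, SAMtools 1.15.1, STAR 2.7.10a and fastp 0.23.2. Sources used here do not say which genome build, annotation or strand setting applied, or whether molecular identifiers were collapsed, so counts may include PCR copies, and reads of near-identical or overlapping genes may be split. The DMSO columns of a set were the same in the tables of both its chemicals except for 2 values that differed by 1 count, and those of the first chemical's table were used.

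The 150 genes, the gene rule and the tests were chosen with earlier results of these data known. CPM used library totals, and log2 values a pseudocount of 2. Tests were run on the counts as deposited with edgeR 4.0.16 in R 4.3.3 (filterByExpr, TMM, glmQLFit and glmQLFTest) on all genes, with Benjamini-Hochberg adjustment over all genes tested and a threshold of 0.05, after a check on simulated counts. The set test used 12 sums, one per chemical. The level test used 84 sums, one per chemical and level, with the chemical as a block. The test within a set used its 42 treated libraries or, added later, 6 sums of one chemical and letter, and the test against DMSO the 24 libraries of a chemical. Letters were taken to pair libraries where same-lettered deviations from the group means had an r over 0.1 for all 3 letters. This held between DMSO and the first chemical in sets 3, 5 and 6 (r over 0.1 in 15 of 18 cases over all sets, 0.076 to 0.477), and in no set between DMSO and the second chemical or between the chemicals. The SE of a log2 difference is its size divided by the square root of F.

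Named genes were the 2 farthest above and the 2 farthest below the mean in each DMSO set, the 2 highest and 2 lowest ratios of treated spread to B, the 2 largest rises and falls at D1 against D7 among genes called by both level tests, and the genes next to the threshold. Gene lists by product name could not be used because the identifiers are not paired with names. Alternatives were DESeq2 1.42.0, no low-count filter, RLE scaling, a minimum mean of 10 counts, single levels, the replicate letter as a block, leaving out each replicate and, for the rule, other thresholds.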

Additional observations from a re-analysis of the deposited data

Results flagged for a closer look

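The difference between D1 and D7 was not the same in the first and the second chemicals of the pairs. By edgeR's test of the difference itself, over 6 first and 6 second chemicals and chosen after the data were seen, 47 of the 150 genes differed, in a background of 2.09% of all genes. Among the genes named for their levels, Rsub_01749 had a D1 difference that was 3.20 ± 0.64 higher on the log2 scale in the second chemicals (adjusted p = 0.000877), from −0.40 in the first to 2.80 in the second. Its D1 libraries were between 795 and 1312 CPM for 2-tert-butyl-4-methoxyphenol and Fipronil carboxamide, both second in their sets. For Rsub_09261 the second chemicals were 1.30 ± 0.25 higher in this difference (adjusted p = 0.000445), as the gene was lower at D1 by −1.94 in the first and −0.65 in the second. For Rsub_01112 the value was 0.93 ± 0.20 (adjusted p = 0.00202), from −1.36 to −0.43. In the last 2 genes the D7 median of the second chemical was below that of the first in 6 of 6 sets. The D7 medians of Rsub_09261 were 18 to 238 CPM in the first and 4.21 to 41.9 CPM in the second chemicals, and those of Rsub_01112 28.5 to 96.7 and 9.25 to 25.0 CPM.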

How the results depend on the processing

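The set difference in treated libraries was called in 127 to 150 of the 150 genes under every alternative, with 134 to 146 when a replicate was left out, but the background moved. Against 51.8% of all genes, it was 14.7% at D1 alone, 25.9% at D2, 33.2% at D3, 32.6% at D4, 30.9% at D6 and 31.8% at D7. With 36 sums, one per chemical and letter, it was 84.7% with the replicate letter as a block and 84.1% without, where the sums of a chemical count as replicates. Without D1 the level test called 44 genes in place of 82, and 6.76% of all genes in place of 19.0%. With the replicate letter as a block it called 96, a setting whose background is not given here. The chemicals of a set differed in 56.6% of gene and set combinations, 59.9% with the letter as a block and 41.5% to 56.0% with a replicate left out, with a background of 23.3% that became 12.2% to 22.0%. With the levels summed by letter it was 28.0%, in a background of 5.34%. The call between second and first chemicals over all sets was made in 71 to 89 genes. Its background under these alternatives is not given here. Against DMSO there were 391 calls over genes and chemicals, 616 with no filter, 685 with the replicate block and 87 to 440 with a replicate left out. The background of 3.49% was 6.15% with DESeq2, 7.68% with the replicate block and 0.538% to 3.96% with a replicate left out. By the rule, 62 of the genes had a B over 3 times W, and 90 were still chosen without control set 1. The cause of these shifts was not tested.

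For single genes 675 values kept their direction and their side of the threshold, 33 came to pass the threshold, 21 no longer did and 5 changed sign, all 5 in the test between the chemicals of a set. These were Rsub_09628 in set 1, at −0.058 without replicate C and up to 0.47 with another left out, Rsub_09497 in set 2, at 0.049 without C and down to −0.53, and Rsub_01781 in set 3, at −0.11 without C and up to 0.85. The fourth gene was Rsub_02216 in set 5, at 0.089 without A, 0.063 without C and −0.24 without B. In the sets given here, only Rsub_09628 of these genes was called with all replicates. Same-lettered libraries of the first and second chemicals of a set had an r between −0.143 and 0.328, over 0.1 in 6 of 18 cases, so the block on letters in the test between them rests on a shared letter alone. At 3 libraries a group and a median of 1083755 counts a library, genes near 20 CPM rest on few counts in a single library. Small differences in them can be missed at this depth, mainly in tests on single libraries. Sums over libraries hold more counts, and the smallest difference that could be detected was not tested.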

Other observations

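Libraries that share a letter and a place tended to lie on the same side across sets that share no library, least so for B. For each chemical the mean of its A, B or C libraries over the 7 levels was taken as a difference from the chemical's mean on the log2 scale, and these were correlated over the 150 genes between chemicals, as a description. Among the 6 second chemicals, 15 pairs, the median r was 0.619 for the A libraries (0.282 to 0.827), 0.303 for B (−0.258 to 0.585) and 0.514 for C (0.203 to 0.765). Among the 6 first chemicals it was 0.420 for A, 0.182 for B and 0.257 for C. Between first and second chemicals, 36 pairs, it was −0.092 for A, 0.036 for B and 0.007 for C. Over the 6869 genes the A libraries had a median r of 0.323 among second chemicals, 0.304 among first and 0.063 between them. For B these were 0.112, 0.081 and 0.048, and for C 0.334, 0.138 and 0.012. Among the DMSO libraries of the 6 sets the median over the 150 genes was 0.217 for A, 0.056 for B and 0.176 for C. The A libraries of DMSO had a median r of 0.281 with those of the first chemicals and 0.094 with those of the second. For B these were 0.161 and 0.001, and for C 0.200 and 0.125. What the letters stood for is not given in the labels.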
